A study of Mus musculus with 6 samples.

Results

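Keratins are the intermediate filament proteins of epithelial cells, and the 9 keratin genes described here were taken by symbol from a table of 23366 genes. Of these, 6 encode keratins of simple, single-layered epithelium (*Krt7*, *Krt8*, *Krt18*, *Krt19*, *Krt20* and *Krt23*) and 3 encode keratins best known from the basal cells of layered epithelium (*Krt5*, *Krt14* and *Krt15*). RNA-sequencing was performed on the small intestine epithelium of mouse embryos at E13.5, in 3 wild type and 3 mutant libraries. Mutant embryos had the genotype Shh-cre-egfp:Tcf7l1 lox/lox, in which Cre recombinase, expressed from the *Shh* locus, deletes a floxed exon of *Tcf7l1*, a repressor of WNT target genes. Each library was made from 500 living cells sorted for the epithelial surface protein EpCAM, with no treatment, and its cDNA was amplified for 15 PCR cycles. The description of the series calls the libraries biological replicates and does not say whether embryos were pooled, or name littermates. No group carries Cre with *Tcf7l1* intact.

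A keratin filament is built from pairs of a type I and a type II keratin, and neither type polymerises alone. In simple epithelium, including that of the gut, keratin 8 (type II) pairs with keratin 18, and in the intestine also with keratins 19 and 20 (type I), while keratin 7 is a second type II protein of ducts and glandular epithelium. The filaments run from desmosome to desmosome and give the cell mechanical strength. In the adult intestine keratin 20 is best known from differentiated cells of the villus, and keratin 19 is found in crypts as well.

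The members are 6 type I and 3 type II genes. The type II genes *Krt7*, *Krt5* and *Krt8* lie on chromosome 15 of mm9 (101241474 to 101260744, 101537501 to 101543322 and 101827142 to 101834773). *Krt18* lies next to that cluster, at 101858647 to 101862457 of the same chromosome, although it is a type I gene. The remaining type I genes lie on chromosome 11. *Krt20* spans 99289717 to 99299464, *Krt23* 99339288 to 99354451, *Krt15* 99993072 to 99997263, *Krt19* 100002124 to 100009979 and *Krt14* 100064476 to 100068862. Exons of other annotated genes overlap 0% of their exon bases. The family resemblance bears on which reads can be assigned to which member, and it is shown by the 27 bases that encode the conserved end of the helical rod, in capitals where all 9 members share the base (GENCODE transcripts of mm9, coding strand).
*Krt8*: ACcTACcGcaagcTgCTgGAGGgggag
*Krt7*: ACcTACcGcaagcTgCTgGAGGgcgag
*Krt5*: ACcTACaGgaagcTgCTgGAGGgcgag
*Krt18*: ACcTACcGccgctTgCTgGAGGatgga
*Krt19*: ACcTACcGcagccTgCTgGAGGgccag
*Krt20*: ACcTACcGccgccTtCTgGAGGgagaa
*Krt23*: ACcTACcGccggcTcCTgGAGGgagac
*Krt15*: ACtTACcGgaaccTgCTcGAGGgccag
*Krt14*: ACcTACcGccgtcTgCTgGAGGgagag
In this stretch 13 bases are common to all members. Over whole coding sequences, identity lay between 69.5% and 72.7% for the 3 pairs within type II, between 56.9% and 73.5% for the 15 pairs within type I, and between 53.0% and 59.5% for the 18 pairs between types. None of the 84-base windows, the read length of the libraries, of *Krt7*, *Krt8*, *Krt18*, *Krt19*, *Krt20*, *Krt23* or *Krt15* occurred in a transcript of another gene. For *Krt5* it was 4.27% of windows and for *Krt14* 4.83%, so their few counts are the less certain ones.

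The genome itself holds near copies of *Krt8*. A stretch of 1734 aligned bases on chromosome 7 of mm9, from 24142113 to 24143830 in an intron of *Nlrp4e*, is 97.9% identical to the *Krt8* transcript, and 37.5% of the 84-base windows of *Krt8* are also found there letter for letter. Only uniquely mapping reads were counted, so up to that share of *Krt8* reads may be missing from the counts in every library. The loss would apply to the same windows in both groups. It limits comparisons of the level of *Krt8* with that of other genes. *Nlrp4e* had 0 counts in all 6 libraries. For *Krt18*, the longest copies were 90.5% identical (1385 bases, chromosome 13, 118246579 to 118247933) and 86.5% identical (1130 bases, chromosome 1, 110894147 to 110895261), and 0% of its windows were identical there.

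The total count lay between 19787517 and 20397278 in wild type and between 18216537 and 19528584 in mutant libraries. *Tcf7l1* had 476, 474 and 364 normalized counts in wild type against 41.4, 33.0 and 73.0 in mutant libraries, so the labels match the targeted gene. *Shh* was lower in the mutants too (log2 difference -1.28 with an SE of 0.17, edgeR adjusted p = 6.1e-05). *Xist* had 0 counts in each wild type library and 229 to 424 in mutant libraries, and the Y-linked *Ddx3y* had 1837 to 2254 and 0. Sex, Cre and lower *Shh* therefore cannot be told apart from the loss of *Tcf7l1* in any comparison below. Counts were scaled by edgeR's TMM method. Genes were called where the adjusted p lay under 0.01, the log2 fold change was 0.5 or more in size, and the mean over libraries reached 50 normalized counts. Of 12501 tested genes, 729 were called lower and 348 higher (8.62% in all), so that 32.3% of calls were higher, against 17.3% with library size as the only scaling and 66.7% with a correction for gene length. The median log2 fold change of all tested genes was -0.04, and these settings shifted it by -0.11 and 0.14.

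The summed level of all 9 members was lower in every mutant library. Members held 0.445%, 0.454% and 0.427% of all counts in the wild type libraries 1, 2 and 3, and 0.305%, 0.297% and 0.296% in mutant 1, 2 and 3 (Wilson 95% interval 0.424% to 0.430% in wild type 3, the lowest of its group, and 0.302% to 0.307% in mutant 1, the highest of its group). The groups did not overlap. Such an interval covers counting error only, since amplified reads without molecular identifiers are not independent molecules. *Krt8*, *Krt18* and *Krt19* together supplied between 89.3% and 91.5% of the members' counts in each library. In these bulk samples, fewer cells with keratins and less keratin RNA per cell cannot be told apart.

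Of the 9 members, 7 passed the filter on low counts and were tested. *Krt20*, *Krt18*, *Krt7* and *Krt15* were called lower in the mutants and 0 were called higher, where 5.83% of all tested genes were called lower and 2.78% higher. *Krt19* and *Krt8* were lower with an adjusted p under 0.01 but under the fold minimum, and *Krt23* differed by less than the spread between libraries. An adjusted p under 0.01 with a lower level was thus found for 6 of the 7, against 7.61% of all tested genes. The libraries of the groups did not overlap for these same 6 members, all lower in the mutants, where 22.2% of all tested genes had such a gap with the mutants lower and 43% had one in either direction. The median log2 fold change of the 7 was -0.54. With DESeq2 4 members were called lower as well.

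**Figure D1:**
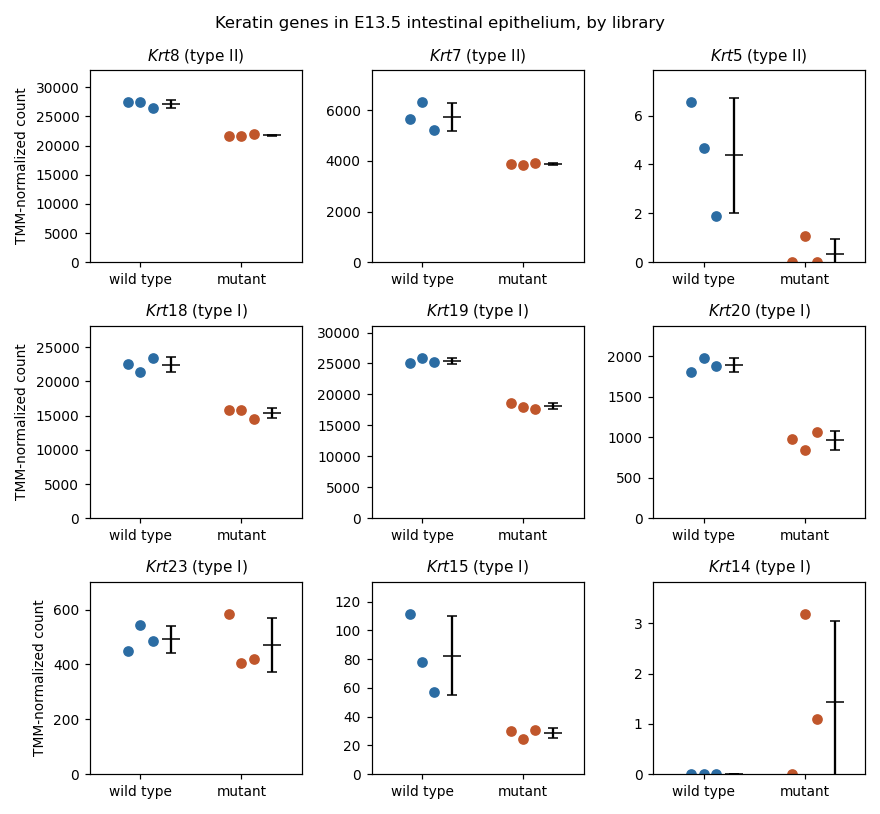
TMM-normalized counts (y axis, from 0, separate scale in each panel) of the 9 keratin genes in the 3 wild type (blue) and 3 mutant (orange) libraries, with the mean (long bar) and SD (capped line) beside the points. The groups are apart for *Krt8*, *Krt7*, *Krt18*, *Krt19*, *Krt20* and *Krt15*, overlap for *Krt23*, and *Krt5* and *Krt14* have at most 7 counts in a library.

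Among the type II genes, *Krt8*, the main partner of all simple type I keratins, had 27417, 27492 and 26392 normalized counts in wild type against 21668, 21639 and 21896 in mutant libraries. Every mutant library was below every wild type library, and the mutant values lay close together. The means were 27100 ± 615 and 21734 ± 141 (SD, n = 3), a log2 fold change of -0.32 (SE 0.06, adjusted p = 0.001 with the quasi-likelihood method of edgeR), which left 80.2% of the wild type level (95% interval 73.6% to 87.4%). It was the smallest difference of the 6 members below an adjusted p of 0.01. Its adjusted p under the 13 alternatives ran from 1.1e-06 to 0.0112, the latter without mutant 1.

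*Krt7*, the type II keratin of ducts and glandular epithelium, had 5652, 6336 and 5218 normalized counts in wild type against 3881, 3850 and 3937 in mutant libraries. Its wild type libraries were the more spread, and all lay above the mutant ones. *Krt7* fell from 5735 ± 564 to 3889 ± 44.2 (log2 difference -0.56 with an SE of 0.08, edgeR adjusted p = 9.5e-05), or to 67.8% of wild type (60.5% to 76.0%). Without wild type 2, its highest library, the log2 fold change was -0.48 and under the minimum for a call. With the correction for gene length it was -0.29 (adjusted p = 0.0111, the highest of a range from 7.0e-10), or -0.47 when the correction was centred on 0. That correction rests on an annotated transcript of 4094 bases of which 1374 are coding.

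*Krt5*, the type II keratin of basal cells, had 7, 5 and 2 counts in wild type against 0, 1 and 0 in mutant libraries. These are raw counts around the 3 counts that a count of 0 allows, and *Krt5* was not tested. No fold is given for so few counts.

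Among the type I genes, *Krt18*, the partner of keratin 8, had 22516, 21324 and 23471 normalized counts in wild type against 15870, 15855 and 14570 in mutant libraries. No wild type library came near the mutant range. *Krt18* fell from 22437 ± 1076 to 15431 ± 746 (SD, n = 3; log2 difference -0.54 with an SE of 0.07, edgeR adjusted p = 2.7e-05), or to 68.8% of wild type (62.5% to 75.7%). Its call depended on libraries at the edge of their group. The log2 fold change was -0.49 without wild type 3 and -0.4995 without mutant 3, both just under the minimum, at adjusted p of 1.6e-05 and 6.6e-04, within a range over the alternatives of 7.9e-13 to 6.6e-04.

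*Krt19*, the smallest keratin, had 25118, 25933 and 25216 normalized counts in wild type against 18625, 17927 and 17683 in mutant libraries. The groups were apart by more than their own spread. The means were 25422 ± 445 and 18078 ± 489, with a log2 fold change of -0.49 (SE 0.06, adjusted p = 2.8e-05, edgeR), 71.1% of wild type (65.1% to 77.7%). *Krt19* was just outside the call as *Krt18* was just inside it. It was called without wild type 1 (-0.5002), without mutant 1 (-0.51), with library size as the only scaling (-0.60) and with the gene-length correction centred on 0 (-0.67), the last chosen after seeing the data, and its adjusted p over all 13 alternatives ran from 4.8e-15 to 7.2e-04.

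*Krt20*, the keratin of differentiated intestinal cells, had 1811, 1983 and 1887 normalized counts in wild type against 981, 837 and 1065 in mutant libraries. The highest mutant library was well below the lowest wild type library. *Krt20* fell from 1893 ± 86.3 to 961 ± 115 (log2 difference -0.98 with an SE of 0.10, edgeR adjusted p = 5.9e-06), or to 50.7% of wild type (43.6% to 59.0%). Under the alternatives its log2 fold change lay between -1.09 and -0.89, and it was called lower in each of these 13 fits (adjusted p from 3.3e-16 to 1.0e-04), but not with the fold minimum raised to 1 on the log2 scale.

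*Krt15*, a keratin of basal cells, was the lowest of the tested members, with 112, 78.3 and 57.0 normalized counts in wild type against 30.0, 24.5 and 31.0 in mutant libraries. All mutant libraries were low, and the wild type libraries were widely spread. *Krt15* fell from 82.3 ± 27.5 to 28.5 ± 3.50 (log2 difference -1.53 with an SE of 0.39, edgeR adjusted p = 0.0083), or to 34.7% of wild type (19.7% to 61.2%). The call held without wild type 3 (adjusted p = 0.0043) and was lost without wild type 1 (0.0736), wild type 2 (0.0255), mutant 1 (0.0227), mutant 2 (0.0313) or mutant 3 (0.0194). With the replicate number as a block the adjusted p was 0.0149, and over all alternatives it ran from 0.0028 to 0.0736.

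*Krt23*, a less studied type I keratin, had 447, 545 and 484 normalized counts in wild type against 585, 407 and 419 in mutant libraries. Mutant 1 was the highest of all 6 libraries and mutant 2 the lowest. The means were 492 ± 49.6 and 470 ± 99.5 (log2 difference -0.06 with an SE of 0.16, edgeR adjusted p = 0.80), with an interval from 75.5% to 121% of wild type. Its direction changed without wild type 2 (0.02), mutant 2 (0.03) or mutant 3 (0.01). *Krt14*, the type I partner of keratin 5, had 0 counts in each wild type library and 0, 3 and 1 in mutant libraries, and was not tested.

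**Figure D2:**
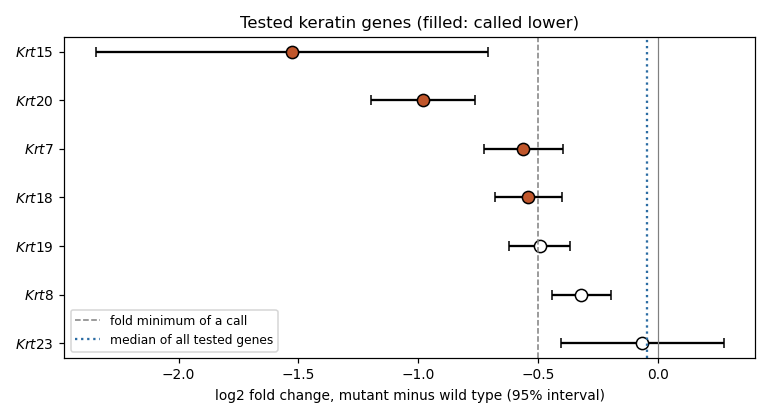
Log2 fold change of the 7 tested members (mutant minus wild type, points) with filled points for called members, 95% intervals (bars), the fold minimum of a call (dashed) and the median of all tested genes (dotted). *Krt18* at -0.54 and *Krt19* at -0.49 sit on either side of the minimum with intervals that overlap, and the interval of *Krt23* includes 0.

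**Figure D3:**
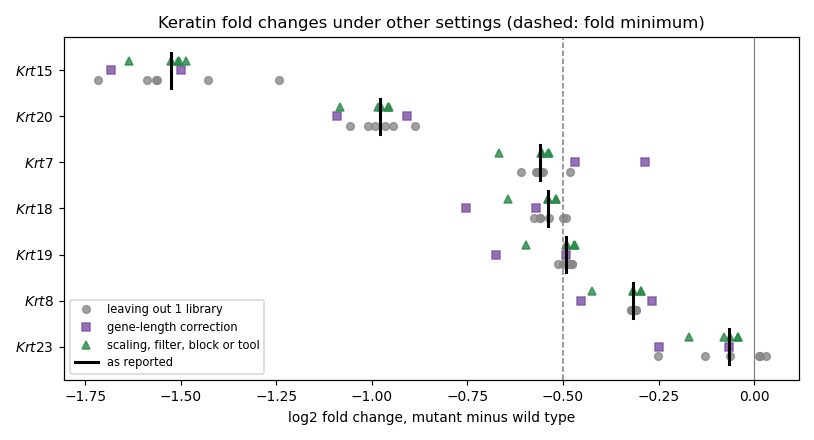
Log2 fold change of the same members (x axis) as reported (black bar) and under each alternative (symbols, by kind). *Krt20* stays beyond the fold minimum of -0.5 and *Krt8* and *Krt23* short of it throughout, while *Krt7*, *Krt18* and *Krt19* have symbols on both sides.

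Levels of the members were compared as normalized counts per kilobase of transcript. In wild type libraries the order was *Krt19* (16131 ± 282), *Krt18* (16027 ± 768), *Krt8* (15014 ± 341), *Krt7* (1401 ± 138), *Krt20* (983 ± 44.8), *Krt23* (314 ± 31.7) and *Krt15* (48.4 ± 16.2), followed by *Krt5* and *Krt14*. *Krt19* and *Krt18* overlapped between libraries and are not ordered, and the ranges of *Krt18* and *Krt8* all but touched. In mutant libraries *Krt8* came first (12041 ± 78.0), before *Krt19* (11471 ± 311) and *Krt18* (11023 ± 533), and the last 2 overlapped again. The order of the top 3 depends on the length used. Per kilobase of coding sequence, *Krt19* led in wild type (20975 ± 367), before *Krt8* (18398 ± 417) and *Krt18* (17639 ± 846), which overlapped between libraries and are not ordered. With the length of *Krt8* reduced to the windows that have no identical genome copy, *Krt8* had 24007 ± 545 per kilobase in wild type and 19253 ± 125 in mutant libraries. *Krt7* was above *Krt20* by transcript and by coding length in both groups.

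The next comparison asked whether the members moved by the same factor, with ratios inside each library, which do not depend on how libraries are scaled. *Krt18*, *Krt19*, *Krt7* and *Krt20* were each lower relative to *Krt8* in all 3 mutant libraries than in all 3 wild type libraries. These ratios share *Krt8* as their denominator and are not independent of each other. *Krt20* showed the largest shift. All 5 ratios tested have an exact 2-sided permutation p of 0.1, also after Benjamini-Hochberg adjustment over the 5, which is the smallest that 3 libraries against 3 allow. They cannot reach 0.05 in this design.

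For *Krt18* to *Krt8* the log2 ratio of counts was -0.28, -0.37 and -0.17 in wild type against -0.45, -0.45 and -0.59 in mutant libraries. The difference of the means was -0.22 on the log2 scale, and the ratio itself dropped by 14.3% (exact permutation p = 0.1). For *Krt19* to *Krt8* the log2 ratios were -0.13, -0.08 and -0.07 against -0.22, -0.27 and -0.31, a difference of -0.17. *Krt7* to *Krt8* had -2.28, -2.12 and -2.34 against -2.48, -2.49 and -2.48, a difference of -0.24. Wild type 3 came closest to the mutant libraries in this last ratio. These ratios were not corrected for gene length. With that correction the log2 fold changes of *Krt7* and *Krt8* were -0.29 and -0.27, or -0.47 and -0.45 when centred on 0. A shift of *Krt7* relative to *Krt8* thus depends on that setting. *Krt18*, *Krt19* and *Krt20* had -0.57, -0.49 and -0.91 with the correction, further from 0 than *Krt8*. *Krt20* to *Krt8* had -3.92, -3.79 and -3.81 in wild type against -4.47, -4.69 and -4.36 in mutant libraries, a difference of -0.67, so that this ratio dropped by 37.0%. *Krt20* was also lower relative to *Krt18*, by -0.44 on the log2 scale (exact permutation p = 0.1), in a comparison added after seeing the data. *Krt19* to *Krt18*, added likewise, overlapped between groups, with log2 ratios of 0.16, 0.28 and 0.10 in wild type against 0.23, 0.18 and 0.28 in mutant libraries (exact permutation p = 0.5). *Krt23* to *Krt8*, also added, overlapped too and had a higher mean in the mutants, by 0.24 on the log2 scale (exact permutation p = 0.4).

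Summed per kilobase of transcript, type I members exceeded type II members 2.01-, 1.97- and 2.14-fold in the wild type libraries 1, 2 and 3, and 1.86-, 1.81- and 1.72-fold in mutant 1, 2 and 3. The type I excess was thus smaller in every mutant library, by -0.19 on the log2 scale (exact permutation p = 0.1). With the reduced length of *Krt8* the excess itself was 1.32-fold in wild type and 1.15-fold in mutant libraries, while the difference stayed at -0.19. Per kilobase of coding sequence the difference was -0.16. The alternatives gave differences between -0.21 and -0.15.

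**Figure D4:**
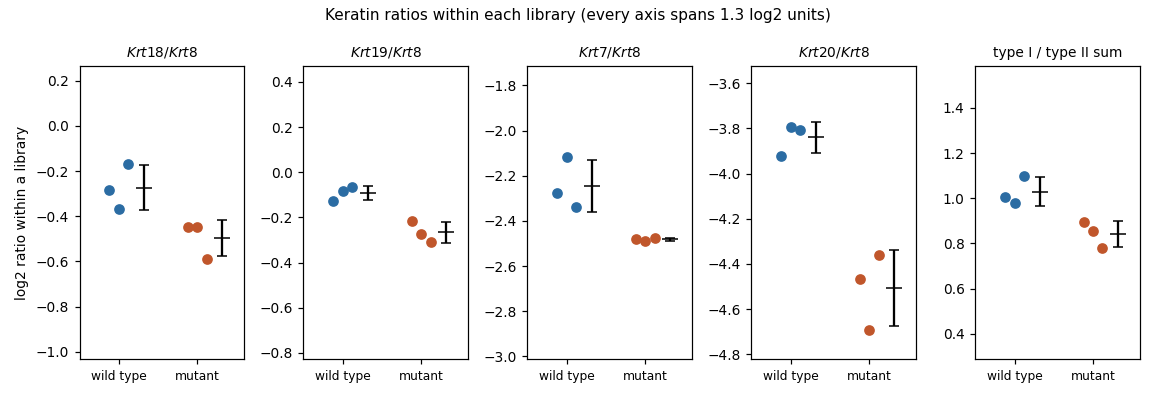
Log2 ratio of counts within each library (y axis, each panel spanning the same range) for 4 pairs of keratin genes and for the length-scaled sums of type I and type II members, in wild type (blue) and mutant (orange) libraries with mean and SD. The groups are apart in all 5 panels, with the largest shift, -0.67, for *Krt20* to *Krt8*.

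The promoters of the called members on hand were read because these genes moved in the same direction, together with that of *Krt8*, the neighbour of *Krt18*. RefSeq promoters of GRCm38.p6, 250 bases before to 50 after the start site, were listed for 7 members, and each matched mm9 exactly. The whole windows of *Krt7* and *Krt14* lie inside the spans that GENCODE gives for these genes. The entries of *Krt15* and *Krt19* were not at hand. Shown here, on the strand of the gene, are *Krt7* (chr15:101242584-101242883 of mm9, plus strand), *Krt20* (chr11:99299418-99299717, minus), *Krt8* (chr15:101834724-101835023, minus) and *Krt18* (chr15:101858397-101858696, plus), with capitals for matches on either strand to the letters TATAAA of the TATA element that places the start of transcription, or to GGGCGG, the letters bound by Sp1-like factors.
*Krt7*: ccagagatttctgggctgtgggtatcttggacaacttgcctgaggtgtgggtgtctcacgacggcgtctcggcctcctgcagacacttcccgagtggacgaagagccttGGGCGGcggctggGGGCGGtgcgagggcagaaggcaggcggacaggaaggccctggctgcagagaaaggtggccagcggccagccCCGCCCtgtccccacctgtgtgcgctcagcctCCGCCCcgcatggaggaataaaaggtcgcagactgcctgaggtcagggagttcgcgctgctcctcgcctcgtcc
*Krt20*: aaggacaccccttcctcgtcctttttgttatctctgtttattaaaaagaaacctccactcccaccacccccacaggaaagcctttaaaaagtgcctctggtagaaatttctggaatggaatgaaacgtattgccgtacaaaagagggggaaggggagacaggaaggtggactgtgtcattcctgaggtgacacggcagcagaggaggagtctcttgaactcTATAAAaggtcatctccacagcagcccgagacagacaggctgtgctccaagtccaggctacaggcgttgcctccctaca
*Krt8*: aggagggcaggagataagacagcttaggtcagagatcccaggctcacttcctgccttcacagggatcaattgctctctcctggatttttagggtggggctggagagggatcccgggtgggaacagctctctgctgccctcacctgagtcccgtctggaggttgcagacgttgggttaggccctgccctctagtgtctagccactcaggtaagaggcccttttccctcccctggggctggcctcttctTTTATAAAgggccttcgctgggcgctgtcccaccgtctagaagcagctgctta
*Krt18*: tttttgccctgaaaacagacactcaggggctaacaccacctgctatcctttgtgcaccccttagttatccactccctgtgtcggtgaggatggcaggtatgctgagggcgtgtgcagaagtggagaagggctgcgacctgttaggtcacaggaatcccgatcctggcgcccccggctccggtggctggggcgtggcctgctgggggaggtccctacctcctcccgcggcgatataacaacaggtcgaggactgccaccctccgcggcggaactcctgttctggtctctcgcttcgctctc
*Krt20* holds TATAAA from 29 bases before its start site. *Krt8* holds these letters once on each strand, overlapping, from 3 bases before the start site. They lie across the listed start of *Krt8*, not ahead of it as in *Krt20*. *Krt7* holds GGGCGG 4 times, the furthest 141 bases before its start. *Krt18* holds neither motif. Of all 32851 promoters in the same table, 13.6% hold TATAAA and 35.7% GGGCGG. The letters of a TCF/LEF site on either strand, which here mean CTTTGAA as well as CTTTGAT, and besides these CTTTGTA as well as CTTTGTT, were found in 0 of the 7 member promoters and in 16.9% of all promoters. AP-1 letters (TGANTCA) were found in 0 of the 7 and in 7.81% of all, and TTTATG, the letters of a CDX site, in *Krt23* alone among the 7 and in 11.9% of all. These counts describe the windows only and say nothing about binding.

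Genes that hold or handle keratin filaments were compared next, from lists written with earlier results of these data known. Of 18 genes of filament anchors (desmosomal proteins, plakins that link filaments to junctions, and the integrins of the cell base), 16 were tested and 0 were called in either direction, where 8.62% of all tested genes were called, with 11 below and 5 above 0 and a median log2 fold change of -0.09, against -0.04 for all tested genes. *Dsp* (desmoplakin, which ties keratins to desmosomes) had 1224 ± 54.6 and 1200 ± 41.8 normalized counts (log2 fold change -0.03, SE 0.09). *Plec* (plectin, a cytolinker) had 424 ± 66.5 and 331 ± 46.1 (-0.36, SE 0.17), and *Jup* (plakoglobin) 1676 ± 312 and 1232 ± 121 (-0.44, SE 0.12, adjusted p = 0.0144, edgeR).

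Of 11 genes whose products bind or modify keratins or are named for them, all were tested. Among them 1 was called lower, where 5.83% of all tested genes were called lower. This was *Fam83h*, whose product brings a casein kinase to keratin filaments, with 235, 271 and 231 normalized counts in wild type against 98.4, 88.4 and 97.3 in mutant libraries. It fell from 246 ± 22.1 to 94.7 ± 5.49 (log2 difference -1.38 with an SE of 0.21, edgeR adjusted p = 1.9e-04). The list median was 0.09. *Sfn* (14-3-3 sigma, a binder of keratins) had 1146 ± 56.9 and 1545 ± 171 (log2 fold change 0.43, adjusted p = 0.0054), under the fold minimum, and *Ywhaz*, *Dnajb6* and *Hspb1*, which bind keratins 8 and 18, had log2 fold changes of 0.07, 0.12 and 0.09.

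Of 15 genes of the other intermediate filaments, 8 were tested, with a median of -0.37. Among these 1 was called lower and 0 higher, where 5.83% of all tested genes were called lower and 2.78% higher. *Lmnb1* (lamin B1 of the nuclear envelope) fell from 1339 ± 331 to 737 ± 84.1 (log2 difference -0.86 with an SE of 0.15, edgeR adjusted p = 7.4e-04). *Vim* (vimentin, the filament of mesenchymal cells) had 1252 ± 119 and 913 ± 49.4 (-0.46, adjusted p = 0.0049), under the fold minimum, while *Lmna* had 691 ± 91.3 and 806 ± 21.4 (0.22).

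**Figure D5:**
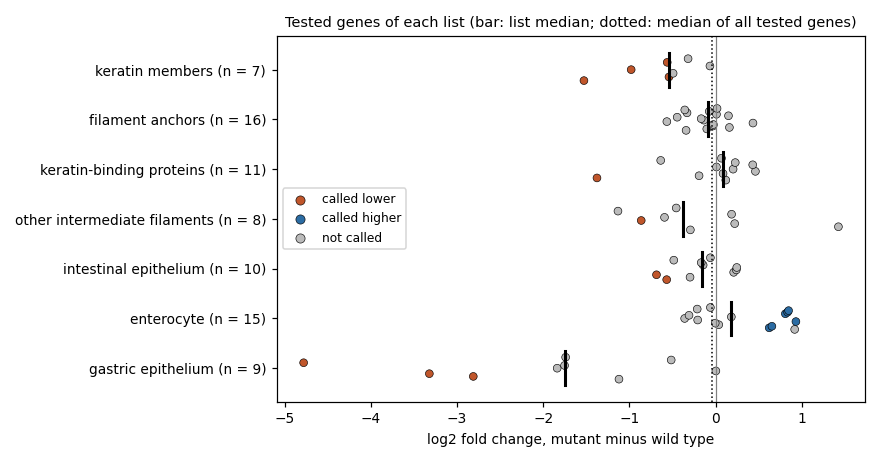
Log2 fold change (x axis, mutant minus wild type) of each tested gene in 7 lists (points, called lower in orange, called higher in blue), with the list median (bar) and the median of all tested genes (dotted). The keratin members lie at or left of -0.06 with a median of -0.54. The filament anchors hold 0 called genes among 16 tested, where 8.62% of all tested genes were called in either direction.

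The tissue labels were checked against markers. The 10 markers of intestinal epithelium were all tested, and their summed level was 110324 to 121735 normalized counts in wild type against 127959 to 130249 in mutant libraries, so the sum was higher in the mutants without overlap. Of the 10, however, 7 had a log2 fold change below 0, with a median of -0.15. *Epcam*, the sorted protein, had 51986 ± 4624 and 61669 ± 2107 (log2 fold change 0.25, adjusted p = 0.013, edgeR). *Cdh1* (E-cadherin) and *Cdx2* (the intestinal master factor) were called lower, at log2 differences of -0.57 and -0.68 (edgeR adjusted p = 0.001 and 0.0035). Of 15 tested enterocyte genes, with a median of 0.18, 6 were called higher and 0 lower, against 2.78% and 5.83% of all tested genes. Among those called were *Fabp2* and *Mttp*, at 0.84 and 0.85. Of the 15, 9 had a log2 fold change above 0 and 6 below 0, and *Dpp4*, the lower one without overlap, had -0.31 (edgeR adjusted p = 0.0046), under the fold minimum.

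Some markers of other epithelia were called lower too, where 5.83% of all tested genes were called lower. Of 13 gastric genes, 9 were tested and 3 called lower (*Nkx6-3*, *Ctse* and *Cldn18*). Of the 9, 8 had a log2 fold change below 0, with a list median of -1.75, while *Gkn1* had 0.00. The summed level of the list was 1893 to 2087 in wild type against 330 to 444 in mutant libraries. The defining *Muc6* was at 0, and *Muc5ac* had 11 counts in wild type 1 and 0 elsewhere. *Sox2* had 12, 7 and 11 counts in wild type and 0 in each mutant library. Surface cells of the stomach are known to make keratin 20, and the part of gastric-like cells in the level of *Krt20* was not tested. Of 7 mesothelial genes, 4 were tested and *Msln* and *Upk1b* were called lower, while *Upk3b* had 374 ± 57.3 and 488 ± 116 (log2 difference 0.39 with an SE of 0.18, edgeR adjusted p = 0.12). The sum of the list was 938 to 1142 in wild type against 719 to 865 in mutant libraries, and the defining *Wt1* had 4 counts in wild type 3 and 0 elsewhere. Mesothelial cells are known to make keratins 8, 18 and 19, and their part was not tested. Of 13 genes of basal and layered epithelium, which include 3 members, 2 were tested, with a sum of 151 to 216 and 46.6 to 115, of which the member *Krt15* itself supplied 57.0 to 112 and 24.5 to 31.0. *Trp63*, which defines basal cells, and *Dsg3* and *Dsc3* had 0 counts in all 6 libraries, beside which the counts of *Krt15* stand. Of the 9 pancreas and liver genes 4 were tested and *Serpina1a* was called lower (-4.32) while *Spp1* had 0.09, with a sum of 792 to 1660 and 68.6 to 768, and *Ptf1a* at 0. Mesenchymal genes summed to 199 to 443 and 216 to 803, those of blood and endothelium to 23.4 to 33.3 and 5.32 to 24.9, and those of the neural crest to 207 to 244 and 195 to 278. Of these lists 6, 1 and 4 genes were tested and 0 were called, where 8.62% of all tested genes were called in either direction. The mesenchymal genes above 0 were *Acta2* and *Tagln*, at 1.52 and 1.31 (edgeR adjusted p = 0.0142 and 0.0261), both highest in mutant 3. The other 4 were below 0. *Col3a1* (-2.21) and *Hbb-y* of the blood list (-2.07) were lower without overlap (edgeR adjusted p = 0.0263 and 0.0281).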

How the data were processed

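Per the labels and the methods of the study, the authors mapped reads with STAR 2.5.2b to mm9, assigned reads with a unique position to genes of a UCSC model with featureCounts 1.5.1, and deposited the raw counts of each of the 6 libraries. Whether counting used strand is not given in the sources used here. The test was the one of edgeR 4.0.16 under R 4.3.3 (TMM, filterByExpr, quasi-likelihood test on genotype, Benjamini-Hochberg adjustment over all tested genes). Printed means and SD refer to counts after TMM scaling. SE and 95% intervals of log2 fold changes come from the F statistic. Ratios within libraries were tested by exact permutation (SciPy 1.17.1). The test was tried on simulated data with a common dispersion for all genes. Calls recovered 98% of genes simulated at a log2 fold change of -2, 92% at -1 and at 1, and 64% at -0.75. Among unchanged genes 1 was called. Smaller folds, such as those of *Krt7*, *Krt18*, *Krt19* and *Krt8*, were not simulated. Transcript lengths and positions are those of GENCODE M1 on mm9, with the longest annotated transcript of each gene. Genome copies of at least 200 coding bases and 85% identity were searched with BLAST+ 2.17.0. Depth was 18216537 to 20397278 counts for a library.

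Tried as alternatives were the RLE scaling, scaling by library size alone, the DESeq2 1.42.0 test, all genes unfiltered, a loess correction for gene length (span 0.5; also centred on 0), a replicate block, each library left out, and other thresholds. The named genes are the members, other tested keratin genes, the called genes of each list and those with a stated role, the checks of the groups, and for *Krt8* and *Krt20* the 3 genes with the highest correlation. The members and lists were chosen with earlier results of these data known. p-values measure the spread between these libraries, for which no source names separate embryos. Libraries of the same group differed by a chi-square of 6.42 to 18.7 per gene, where sampling noise gives 1, and each was used as a replicate.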

Additional observations from a re-analysis of the deposited data

How the results depend on the processing

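The number of members called lower was 4, and 0 were called higher under every alternative. It was 6 with no minimum fold change, 5 when only library size was scaled, 1 with a fold minimum of 1 on the log2 scale and lay between 2 and 4 with each library left out, with 2 without wild type 2 and 2 without mutant 3. The log2 fold change of *Krt23* lay between -0.25 and 0.030 with each library left out, and its direction changed without wild type 2 (0.02), mutant 2 (0.030) and mutant 3 (0.01). No other member changed direction in any alternative, and the 5 ratios kept theirs in all 39 recomputed values. The ratios of pairs were recomputed only with each library left out and with the replicate block, not with the gene-length correction. Under that correction *Krt7* and *Krt8* had nearly the same log2 fold change, -0.29 and -0.27. Among all genes, 348 were called higher. This became 200 when only library size was scaled, 772 with the gene-length correction, 902 with no minimum fold change and 85 with a fold minimum of 1 on the log2 scale. The 729 genes called lower became 386 with the gene-length correction, 284 with a fold minimum of 1 on the log2 scale and 1178 at an adjusted p under 0.05, and lay between 405 and 867 with each library left out. With the gene-length correction centred on 0, chosen after seeing the data, 269 genes were called higher and 737 lower. Without wild type 3 there were 516 called higher and 867 lower. Without any other library both numbers were below those reported. Where only the threshold changed, the fit was the same. The causes of the other changes were not tested. Same-numbered libraries of the groups did not deviate together, with correlations of their deviations of 0.01, -0.04 and -0.02, so they share only a number. With the replicate number as a block, 339 genes were called higher, 691 lower and 3 members lower, and each ratio kept its value with an exact sign-flip p of 0.25, the smallest that 3 pairs allow. Only wild type 1 correlated best with the mutant library of its own number. Depth limits *Krt5* and *Krt14*, and the identical copy limits the level of *Krt8*.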

Other observations

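The table held 52 keratin genes with the 9 members among them. Of the remaining ones, 24 had 0 counts in all 6 libraries and *Krt10* and *Krt1* were tested. *Krt10*, a keratin of the upper layers of skin, had 264, 252 and 314 normalized counts in wild type against 295, 328 and 384 in mutant libraries, which overlapped (log2 difference 0.28 with an SE of 0.17, edgeR adjusted p = 0.24). *Krt1*, its type II partner, had 13, 12 and 16 counts in wild type against 11, 4 and 0 in mutant libraries (log2 difference -1.27 with an SE of 0.88, edgeR adjusted p = 0.30). *Krt17* had 31 counts in wild type 3, 7 in mutant 3 and at most 2 in the other libraries, and was chosen for mention after its values were seen.

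Across the 6 libraries, the genes whose log2 CPM ran most like that of *Krt8* were *Mocs1*, *Pamr1* and *Tmem231*, with Pearson correlations of 0.999, 0.999 and 0.997. For *Krt20* they were *Ubqln1*, *Styk1* and *Ccni*, at 0.998, 0.998 and 0.997. These are descriptions over 6 points that share the split into 2 genotypes, and 461 and 367 of 10565 genes had a correlation over 0.95. Of the members, *Krt19* ran most like *Krt8* (0.988) and *Krt23* least (0.21).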
